A study of Homo sapiens with 12 samples.

Results

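A set of 6 genes that encode secreted or cell-surface proteins, THBS1, CCN1, CCN2, F3, TGFB2 and ADAMTS1, was followed in MDA-MB-231, a line of human triple-negative breast cancer cells. All 6 are known as targets of the YAP coactivator, of TGF-beta signalling or of both, or act on the matrix that these pathways shape. They were chosen by their RNA difference between treated and control cells, CCN1 for being higher and the other 5 for being lower, and were found by symbol in all 12 tables, as 6 of 6777 genes. The cells received 10 nM AZD0095, which inhibits MCT4, a membrane carrier that exports lactate, or its solvent DMSO for 4 h, in a series that asks how lactate accumulation bears on transcription and translation. Each treatment had 3 RNA-seq and 3 ribosome profiling libraries, in which ribosome-protected mRNA fragments, or footprints, are sequenced. The labels do not say whether replicates were separate cultures, so the p-values cover library-to-library spread alone, and that may be technical. Levels are FPKM, reads scaled to gene length and library total, as the authors deposited them.

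YAP and its paralog TAZ enter the nucleus when the Hippo kinases are inactive and act on genes through the DNA-binding TEAD factors, with CCN1 and CCN2 as their best-known targets. TGF-beta ligands are secreted in a latent form, are released in the matrix by factors that include thrombospondin-1, and signal through a receptor pair to SMAD factors, which share target genes with YAP. In MDA-MB-231 cells both pathways are known for their part in invasion.

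The labelled cell type matched its markers: all 8 genes of the mesenchymal breast line list were measured, led by VIM at 2492 to 2799 FPKM of RNA. Of 8 luminal or epithelial genes 3 were measured, the highest being ERBB2 at 15.4 to 21.4 FPKM, and of the 8 fibroblast, 6 leukocyte and 5 endothelial markers 0 were among the genes analysed. The footprint libraries held an implied 141122 to 501351 reads with AZD0095 and 107087 to 192324 with DMSO, while for RNA the read depth is unknown. In RNA AZD0095 replicate 1 stood apart on the second principal component (28.5% of the variance), at 12.2, and DMSO replicate 1 lay on the same side at 3.18, the others being below 0, and DMSO replicates 2 and 1 stood apart in footprints on the first (25.2%) and second (23.3%). Replicates of a typical gene had a standard deviation (median over genes) of 0.10 with AZD0095 and 0.09 with DMSO in RNA, against 0.44 and 0.53 in footprints, on the scale of log2(FPKM + 1).

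The 250 bases before the start of a gene were at hand for 4 of the 6, from RefSeq on GRCh38.p14, and 3 are shown because they hold the core of the TEAD recognition element, GGAATG on either strand, which is in capitals. In CCN2 (chr6:131951373-131951622, minus strand) it occurred 3 times, with first bases 169, 104 and 95 before the start. In THBS1 (chr15:39580829-39581078, plus strand) it occurred 1 time, 46 before the start, and in TGFB2 (chr1:218345086-218345335, plus strand) 1 time on the opposite strand, as CATTCC, 185 before the start.
CCN2: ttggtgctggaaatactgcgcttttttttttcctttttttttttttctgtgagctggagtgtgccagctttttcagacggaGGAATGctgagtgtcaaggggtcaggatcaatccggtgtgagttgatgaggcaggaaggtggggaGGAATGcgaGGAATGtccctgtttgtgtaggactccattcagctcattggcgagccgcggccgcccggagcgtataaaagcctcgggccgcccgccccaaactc
THBS1: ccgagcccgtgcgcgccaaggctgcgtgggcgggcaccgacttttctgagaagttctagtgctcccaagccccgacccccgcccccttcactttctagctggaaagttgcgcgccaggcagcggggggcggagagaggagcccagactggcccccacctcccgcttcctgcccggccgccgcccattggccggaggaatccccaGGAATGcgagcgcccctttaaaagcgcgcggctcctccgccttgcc
TGFB2: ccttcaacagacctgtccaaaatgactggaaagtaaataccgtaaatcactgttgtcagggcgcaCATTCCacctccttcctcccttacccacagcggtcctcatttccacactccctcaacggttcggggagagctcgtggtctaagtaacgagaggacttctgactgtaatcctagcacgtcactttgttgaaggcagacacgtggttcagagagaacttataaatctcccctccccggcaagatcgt
Of the 35116 promoter windows of this length, 11.9% held at least 1 GGAATG on either strand and 0.0826% held 3 or more. The window of F3 (chr1:94541760-94542009, minus strand) held 0 copies of GGAATG and 2 of the AP-1 element TGANTCA, which 6.57% of windows hold. The SMAD core CAGAC, searched on both strands like the others, was found 1 time in CCN2 and THBS1, 2 times in TGFB2 and 0 times in F3, against 38.0% of windows with at least 1. These matches describe the letters of the windows and show no binding.

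In RNA, CCN1 stood above its DMSO level in every AZD0095 library, and the other 5 genes stood below theirs. These differences chose the genes, so they are given as a description, with the fitted difference on the scale of log2(FPKM + 1) and its standard error (SE) but no test. By the call used across the series, a limma adjusted p under 0.05, the 6 counted 1 higher and 5 lower, where 8.04% of all genes were called, 5.03% higher and 3.01% lower; nothing is read from this. Of all genes 52.3% had a difference above 0. Groups were free of overlap in each of the 6 genes and in 29.2% of all genes, 17.7% higher and 11.5% lower. In bulk RNA, fewer cells with a transcript and less transcript per cell cannot be told apart.

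CCN1 encodes a secreted matrix protein that binds integrins and is known to promote cell adhesion and migration. It lies on chromosome 1 from 85580761 to 85583950 (ENSG00000142871; RefSeq, GRCh38.p14). Its RNA was at 1078, 1135 and 1164 FPKM with AZD0095, against 829, 888 and 901 FPKM with DMSO. The lowest treated library thus stood above the highest control library, and replicate 1 was the lowest library of both groups. The means were 1126 ± 43.8 and 872.8 ± 38.2 FPKM (SD, n = 3), a log2 difference of 0.37 ± 0.05 (SE), with CCN1 in place 39 of 6777 genes by RNA level with AZD0095 and 54 with DMSO.

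CCN2, its paralog and a mediator of fibrotic responses to TGF-beta, lies on chromosome 6 from 131948176 to 131951372 (ENSG00000118523) and moved the other way in RNA. It was at 336, 362 and 372 FPKM with AZD0095, against 420, 469 and 473 FPKM with DMSO. All 3 treated libraries were below all 3 control libraries, again with replicate 1 lowest in both groups. The means were 356.6 ± 18.6 and 454.0 ± 29.1 FPKM, a log2 difference of -0.35 ± 0.06.

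THBS1 encodes thrombospondin-1, a large matrix glycoprotein that activates latent TGF-beta and binds the receptor CD47, and spans chromosome 15 from 39581079 to 39599466 (ENSG00000137801). Its RNA was at 273, 330 and 314 FPKM with AZD0095, against 469, 535 and 562 FPKM with DMSO. The treated libraries reached at most 330 FPKM, well under the lowest control library. The log2 difference was -0.77 ± 0.09, place 15 among the falls of all genes by size.

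ADAMTS1, a secreted metalloprotease that cleaves matrix proteoglycans such as versican, spans chromosome 21 from 26835755 to 26845409 (ENSG00000154734). It was at 23.5, 24.1 and 24.1 FPKM with AZD0095, against 44.5, 46.4 and 45.5 FPKM with DMSO. The spread within each group was small beside the gap between them. The log2 difference of -0.90 ± 0.06 stood in place 8 among the falls.

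TGFB2, the gene of the TGF-beta 2 ligand, spans chromosome 1 from 218345336 to 218444619 (ENSG00000092969). Its RNA was at 24.5, 24.1 and 21.8 FPKM with AZD0095, against 30.6, 29.3 and 31.7 FPKM with DMSO, a log2 difference of -0.37 ± 0.07. F3 encodes tissue factor, the cell-surface receptor that starts blood coagulation, and spans chromosome 1 from 94529173 to 94541759 (ENSG00000117525). It was at 311, 323 and 316 FPKM with AZD0095, against 391.7, 390.7 and 393.8 FPKM with DMSO, a log2 difference of -0.31 ± 0.04. In neither gene did the groups overlap, and the 3 control libraries of F3 lay within a standard deviation of 1.60 FPKM.

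The 6 RNA differences were nearly the same with and without the replicate 1 libraries. From replicates 2 and 3 alone the log2 differences were 0.36 for CCN1, -0.36 for CCN2, -0.77 for THBS1, -0.30 for F3, -0.40 for TGFB2 and -0.90 for ADAMTS1. The pair of replicate 1 libraries alone, with 1 library per treatment, gave 0.38, -0.32, -0.78, -0.33, -0.31 and -0.89 in the same order. The number of the 6 past the call was 6 without AZD0095 replicate 1 and 5 without DMSO replicate 1 or AZD0095 replicate 3, when TGFB2 was lost. It was 4 without DMSO replicate 2, DMSO replicate 3 or AZD0095 replicate 2, when TGFB2 and CCN2 were lost. Calls over all genes moved too, with 1112 without AZD0095 replicate 1, 280 and 214 without DMSO replicate 1 and AZD0095 replicate 3, and 100 and 116 without DMSO replicate 2 and AZD0095 replicate 2, so the members' counts are not read apart from them.

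**Figure D1:**
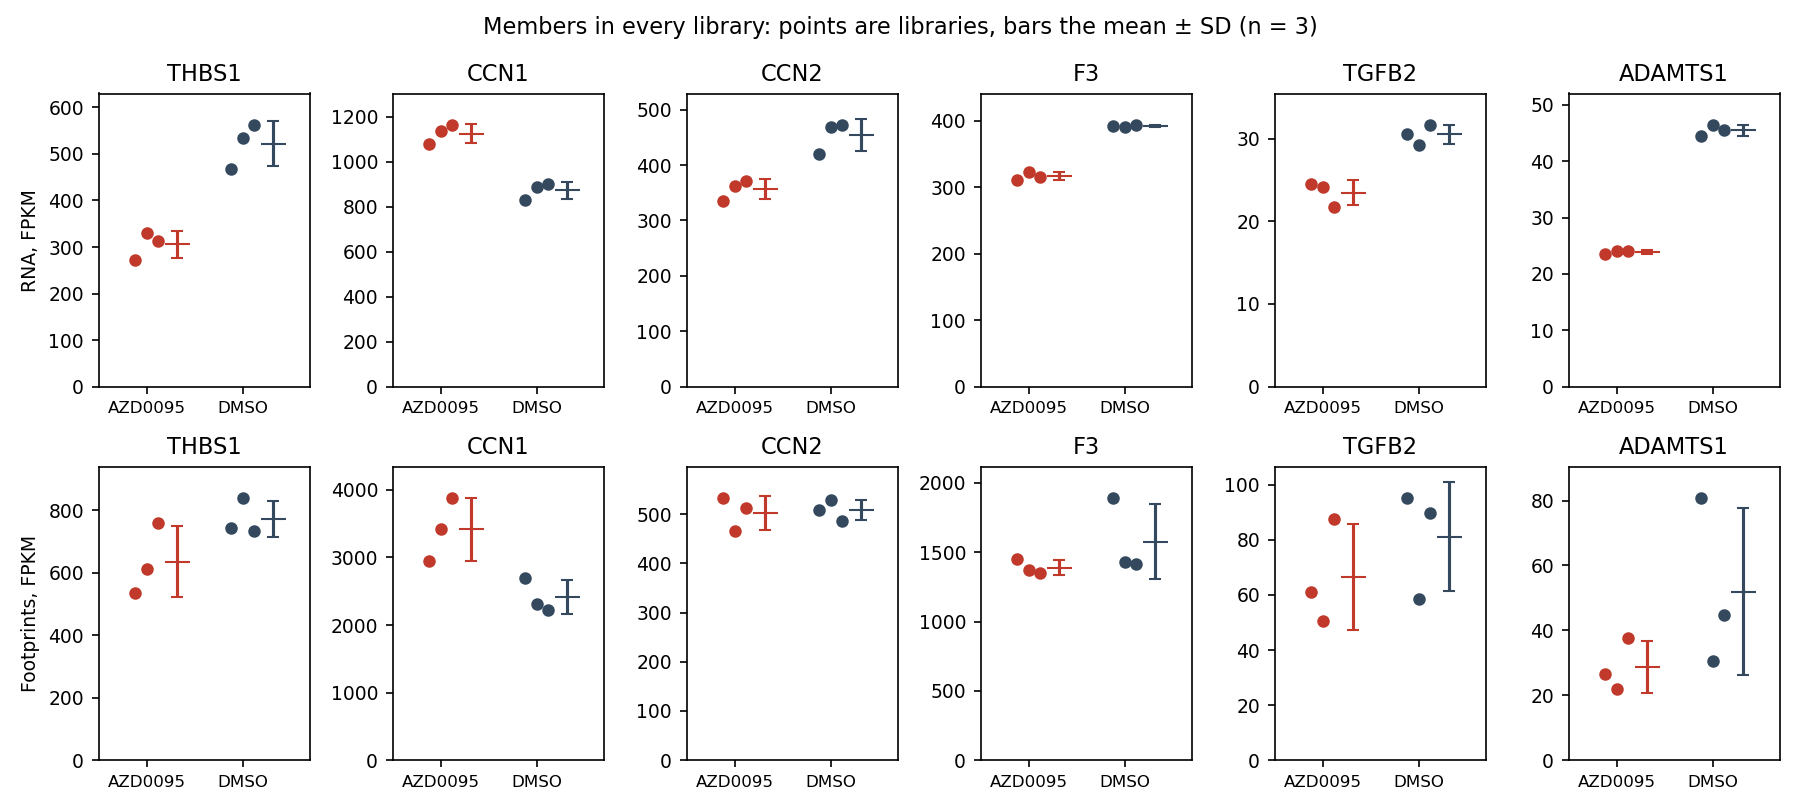
FPKM of the 6 genes in RNA (upper row) and footprints (lower row), with AZD0095 left of DMSO in each panel; points are libraries and bars the mean ± SD (n = 3). In RNA the groups are apart in all 6 panels, with CCN1 higher and the others lower with AZD0095, while in footprints they are apart for CCN1 alone.

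Footprints came from libraries that took no part in the RNA difference, so they were tested, although the 6 genes were named with results of these data known. The titles do not say whether both assays drew on the same cultures, so the footprint test may not be independent of the choice. Footprints of CCN1 were higher with AZD0095 in every library, those of CCN2 averaged nearly the same, and those of the other 4 were lower on average with overlapping groups. None of these differences passed the test: in limma's fit of footprints 0 of the 6 and 0 of all 6777 genes (0.0%) were called at an adjusted p under 0.05, and 530 genes (7.82%) had an unadjusted p under 0.05, of the 6 only CCN1. Over all genes 53.1% were above 0, and 13.0% had groups free of overlap. Implied depth was higher in AZD0095 replicate 3 than in any other footprint library, and the part of depth in these values was not tested.

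CCN1 footprints were at 2951, 3417 and 3874 FPKM with AZD0095, against 2694, 2313 and 2229 FPKM with DMSO. The groups did not overlap, as for 7.19% of all genes in this direction; 0 of the 5 others had all treated libraries below all control libraries, as 5.77% of all genes did. The means were 3414 ± 461 and 2412 ± 248 FPKM (SD, n = 3), a log2 difference of 0.50 ± 0.16 (SE, limma adjusted p = 0.626), with a 95% interval of 0.15 to 0.84. It was 0.58 without DMSO replicate 1 and 0.47 without DMSO replicate 2, the libraries that stood apart. Without AZD0095 replicate 3, the library of highest CCN1 value and implied depth, it was 0.40, the lowest with a library left out.

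CCN2 footprints were at 532, 465 and 512 FPKM with AZD0095, against 509, 528 and 487 FPKM with DMSO. The 3 control libraries lay inside the range of the treated ones. The log2 difference was -0.02 ± 0.21 (SE, limma adjusted p = 0.992), with a 95% interval of -0.47 to 0.43 that holds the RNA difference of -0.35. Its values came to whole reads, 81, 109 and 277 with AZD0095 and 68, 61 and 101 with DMSO. At this depth the 68 reads of DMSO replicate 1 gave a 95% Poisson interval of 395 to 645 FPKM.

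THBS1 footprints were at 536, 612 and 759 FPKM with AZD0095, against 743, 838 and 735 FPKM with DMSO. The treated library of replicate 3 reached into the control range and the other two lay below it. The log2 difference was -0.29 ± 0.21 (SE, limma adjusted p = 0.773), with a 95% interval of -0.75 to 0.16. That interval ends just short of the RNA difference of -0.77 ± 0.09 (SE), which chose the gene. The footprint difference was -0.18 without AZD0095 replicate 1, -0.43 without AZD0095 replicate 3, and -0.32 and -0.23 without DMSO replicates 1 and 2. Here counting error was smaller, with 268, 471 and 1348 implied reads with AZD0095 and 326, 318 and 501 with DMSO, and the lowest treated value had a Poisson interval of 474 to 604 FPKM.

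F3 footprints were at 1448, 1373 and 1350 FPKM with AZD0095, against 1889, 1430 and 1412 FPKM with DMSO. The highest control library was DMSO replicate 1, and without it the log2 difference of -0.17 ± 0.18 (SE) came to -0.03. TGFB2 footprints were at 61.2, 50.6 and 87.7 FPKM with AZD0095, against 95.1, 58.6 and 89.8 FPKM with DMSO, from only 11, 14 and 56 implied reads with AZD0095 and 15, 8 and 22 with DMSO. Its log2 difference of -0.29 ± 0.41 had a 95% interval from -1.19 to 0.61, and was -0.16 without DMSO replicate 1 and -0.115 without AZD0095 replicate 2, against -0.51 without DMSO replicate 2 and -0.51 without AZD0095 replicate 3. At this depth no footprint change of TGFB2 of the size seen in RNA was detectable.

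ADAMTS1 footprints were at 26.5, 21.96 and 37.7 FPKM with AZD0095, against 80.6, 30.5 and 44.7 FPKM with DMSO. Here too DMSO replicate 1 was the highest library, and the groups overlapped. The log2 difference of -0.76 ± 0.53 (SE, limma adjusted p = 0.773) was -0.39 without DMSO replicate 1 and -1.08 without DMSO replicate 2, and its 95% interval ran from -1.91 to 0.39. Intervals from reads cover counting error only, since fragments without molecular identifiers are not independent molecules. Read numbers were not recovered for CCN1, F3 and ADAMTS1.

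**Figure D2:**
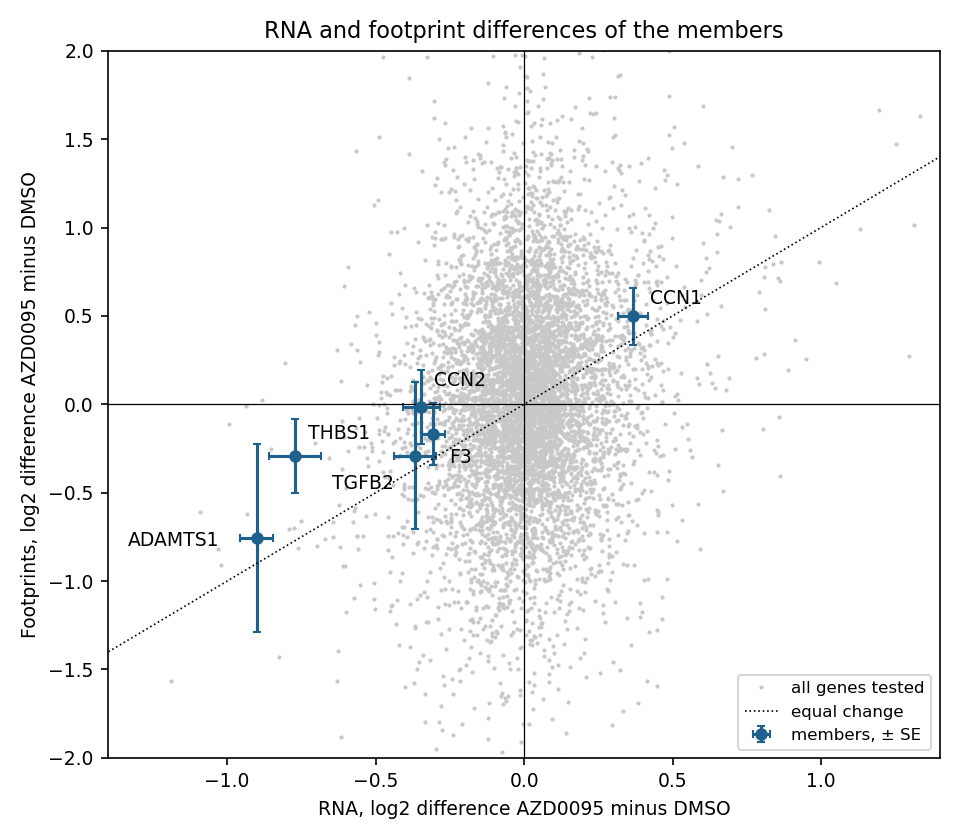
Log2 difference between AZD0095 and DMSO in RNA (x axis) and in footprints (y axis), with all genes tested in grey, the 6 genes with their standard errors and a dotted line of equal change; 24 genes lie outside the axes. CCN1 is at 0.37 and 0.50, THBS1 at -0.77 and -0.29, and CCN2 at -0.35 and -0.02.

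CCN1 and CCN2 were set against each other by their ratio within each library, which needs no scaling between libraries. In RNA, where the opposite differences chose the pair, CCN1 was at 3.21, 3.13 and 3.13 times the FPKM of CCN2 with AZD0095, against 1.97, 1.89 and 1.91 times with DMSO. In footprints the ratio was 5.55, 7.35 and 7.57 with AZD0095, against 5.30, 4.38 and 4.58 with DMSO. Every treated library was above every control library, though AZD0095 replicate 1 exceeded DMSO replicate 1 only slightly. The log2 ratio of footprints was 2.75 with AZD0095 and 2.24 with DMSO, a difference of 0.51 (two-sided exact permutation test, p = 0.1, n = 3 each), and 0.1 is the smallest p that 3 against 3 allows.

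Against THBS1 the separation was wider. CCN1 footprints were at 5.50, 5.59 and 5.10 times those of THBS1 with AZD0095, against 3.63, 2.76 and 3.03 times with DMSO. The log2 ratio differed by 0.79 (two-sided exact permutation test, p = 0.1, n = 3 each). Both tests share the CCN1 values and both p-values stayed at 0.1 when adjusted over the 2 ratios. In RNA the same ratio was 3.95, 3.44 and 3.71 with AZD0095 and 1.77, 1.66 and 1.60 with DMSO.

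**Figure D3:**
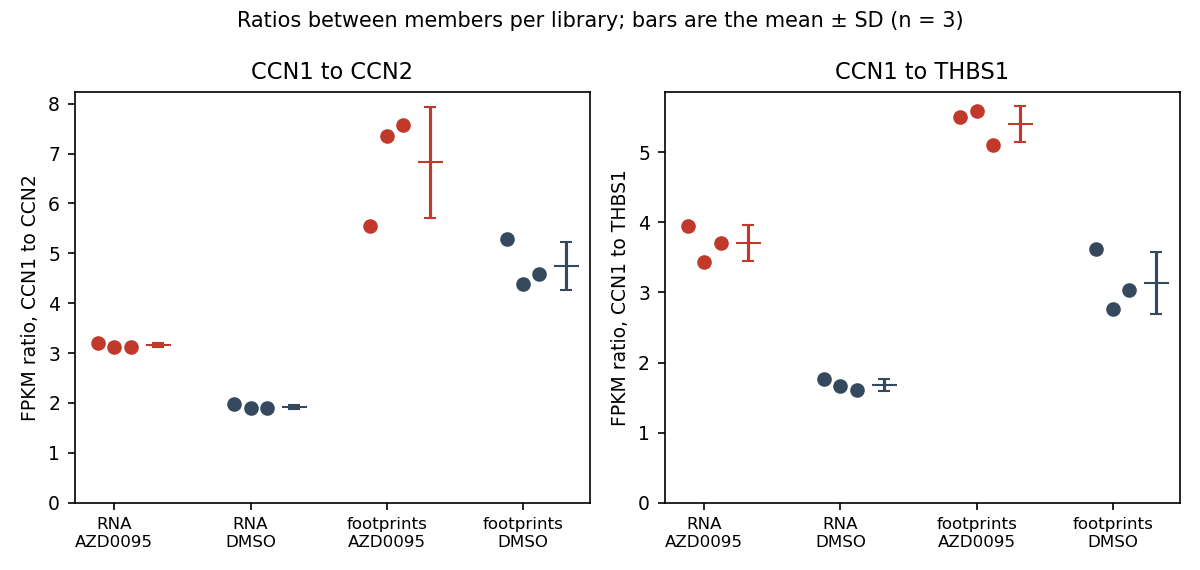
Ratio of CCN1 to CCN2 (left) and of CCN1 to THBS1 (right) in FPKM per library, for RNA and footprints, AZD0095 left of DMSO; bars are the mean ± SD (n = 3). Both ratios are higher with AZD0095 in every library of both assays, and the footprint ratio of CCN1 to CCN2 is 6.82 ± 1.11 with AZD0095 and 4.75 ± 0.48 with DMSO.

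Footprints relative to RNA, a measure of translational efficiency, placed the 6 genes far apart, and this order had no part in their choice. Whether both assays were scaled to the same length of a gene is not stated. The order between genes may carry such a difference, which was not tested. On the log2 scale F3 was highest, at 2.13 ± 0.03 with AZD0095 and 1.99 ± 0.14 with DMSO (SE from 3 libraries per assay). CCN1 was at 1.59 ± 0.12 with AZD0095 and 1.46 ± 0.09 with DMSO, and TGFB2 at 1.43 ± 0.23 with AZD0095 and 1.35 ± 0.22 with DMSO. THBS1 followed at 1.04 ± 0.17 with AZD0095 and 0.57 ± 0.10 with DMSO. CCN2 was at 0.49 ± 0.07 with AZD0095 and 0.16 ± 0.06 with DMSO, and ADAMTS1 at 0.22 ± 0.22 with AZD0095 and 0.08 ± 0.40 with DMSO. The order of the 6 was the same in both treatments, but several could not be ordered beyond their errors: CCN1 and TGFB2, CCN2 and ADAMTS1, TGFB2 and THBS1 with AZD0095, and THBS1 and ADAMTS1 with DMSO. The median of all genes was 1.16 with AZD0095 and 1.10 with DMSO, and CCN1 stood at percentile 67.5 with AZD0095 and 62.6 with DMSO, its paralog CCN2 at 24.8 with AZD0095 and 19.0 with DMSO.

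With AZD0095 this ratio was higher for all 6, by 0.48 ± 0.20 (SE) for THBS1 and 0.33 ± 0.15 for CCN2 on the log2 scale. It was higher by 0.14 ± 0.16 for F3, 0.14 ± 0.46 for ADAMTS1, 0.13 ± 0.16 for CCN1 and 0.08 ± 0.36 for TGFB2. Over all genes 52.4% were above 0 and the median was 0.03. The RNA difference that chose the genes enters the ratio with the opposite sign, so for the 5 genes with lower RNA the direction depends on their choice, and no test is given. In limma's interaction fit over 12 libraries 0 of 6777 genes (0.0%) were called, 578 (8.53%) having an unadjusted p under 0.05. The standard errors of the 6 differences come from this fit, where each gene has 1 spread for RNA and footprint libraries together. In all 6 genes they lie below the SE of the footprint difference alone, at 0.152 against 0.207 for CCN2 and 0.199 against 0.208 for THBS1. They may thus be too small, and no distance from 0 is read from them. The differences of TGFB2 and ADAMTS1 turned negative without DMSO footprint replicate 2, at -0.14 and -0.17, and without AZD0095 footprint replicate 3, at -0.14 and -0.064. Without AZD0095 footprint replicate 3 the difference of CCN1 was 0.035, and without AZD0095 replicate 1 or DMSO replicate 1 it was 0.23 and 0.21, and without DMSO replicate 3 0.076. That of F3 was 0.27 without DMSO footprint replicate 1, 0.074 without DMSO replicate 2 and 0.065 without DMSO replicate 3.

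**Figure D4:**
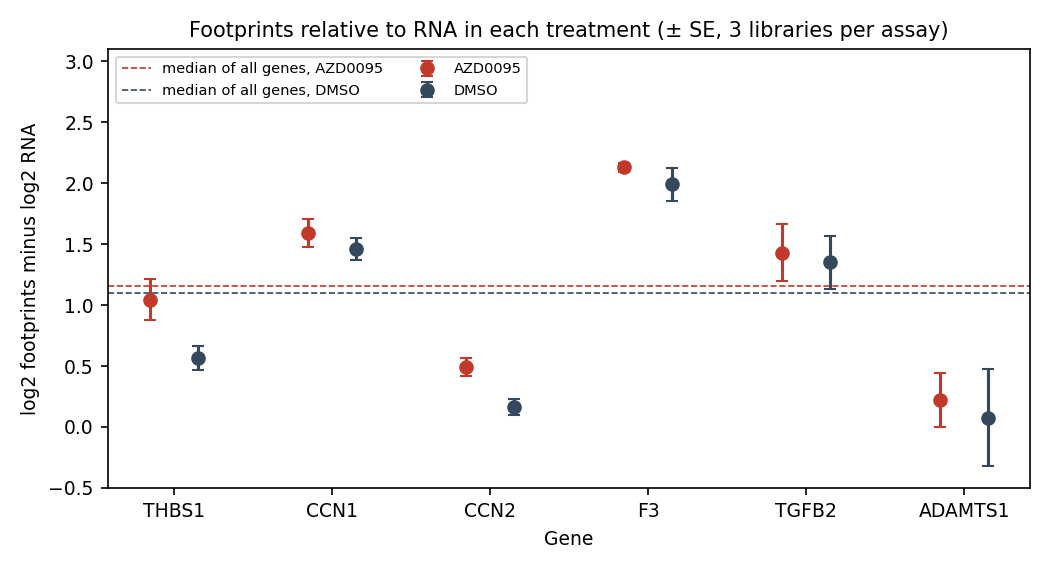
Mean log2 footprint value minus mean log2 RNA value for each gene with AZD0095 (left point) and DMSO (right point); bars are the standard error from 3 libraries per assay and dashed lines the median of all genes. F3 is highest at 2.13 and 1.99, and THBS1, CCN2 and ADAMTS1 lie below the medians of 1.16 and 1.10 in both treatments.

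Other genes of the same pathways were read from lists of known pathway genes, some shared between lists, with the RNA of each tested by limma over all genes. The counts of each list stand beside a share of 8.04% called among all genes, 5.03% higher and 3.01% lower. No list was tested against this share. Calls over all genes fell from 545 to between 100 and 280 when any RNA library but AZD0095 replicate 1 was left out. Calls of list genes lost in this way are not read apart from that fall. Measured here means listed among the 6777 genes, all at 1.002 FPKM or more in every library. Every list was thus read in part, down to 8 of 27 matricellular, ADAMTS and TIMP genes. Of the 22-gene YAP and TAZ signature 18 genes were measured, 14 besides the members. Of these 14, GADD45A rose and FJX1 fell while 12 did not pass the test, and the median log2 difference was -0.09 against 0.01 over all genes. FJX1, the relative of a fly gene of planar cell polarity, fell to 15.2 ± 1.27 FPKM with AZD0095, against 24.0 ± 2.39 FPKM with DMSO (SD, n = 3; log2 difference -0.63, limma adjusted p = 0.00866). Its adjusted p was 0.059 without DMSO replicate 2 and 0.053 without AZD0095 replicate 2. The cell-cycle arrest gene GADD45A rose by 0.28 (limma adjusted p = 0.0304), a call lost when DMSO replicate 2 (adjusted p 0.15), DMSO replicate 3 (0.096), AZD0095 replicate 2 (0.11) or AZD0095 replicate 3 (0.098) was left out. The classical YAP targets ANKRD1 and AMOTL2 were at 402 ± 55.2 and 33.9 ± 2.02 FPKM with AZD0095, against 442 ± 26.0 and 40.2 ± 1.74 FPKM with DMSO, and neither was called (limma adjusted p = 0.404 and 0.0712).

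The YAP machinery itself had 17 measured genes, of the Hippo pathway and the TEAD factors. In RNA 2 of them rose and 0 fell, beside 5.03% and 3.01% of all genes, 15 did not pass the test, and the median was -0.05. YAP1 was at 48.2 ± 1.04 FPKM with AZD0095 and 49.8 ± 2.37 FPKM with DMSO, a log2 difference of -0.05 ± 0.06 (SE, limma adjusted p = 0.677), and WWTR1, the gene of TAZ, was at -0.02. Of the TEAD genes, TEAD3 rose, at 17.4, 21.7 and 20.5 FPKM with AZD0095 against 9.7, 11.1 and 10.6 FPKM with DMSO (log2 difference 0.86, limma adjusted p = 0.00286). Each treated library was above each control library and the call held without each RNA library in turn. Its footprints were at 34.6, 25.7 and 35.0 FPKM with AZD0095, against 30.2, 38.1 and 64.1 FPKM with DMSO, with overlapping groups. TEAD1 (-0.06) and TEAD4 (-0.17) were not called. STK4, which encodes the Hippo kinase MST1, rose by 0.39 (limma adjusted p = 0.0107), a call lost without DMSO replicate 2 (0.068) or AZD0095 replicate 2 (0.063), and LATS2 was at -0.08.

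Of 13 measured TGF-beta target genes besides the members 3 rose and 1 fell, against 8.04% of all genes called in either direction, 9 did not pass the test, and the median was 0.08. ITGA5, the fibronectin receptor subunit, rose to 81.7, 82.6 and 88.8 FPKM with AZD0095, against 43.4, 55.5 and 58.1 FPKM with DMSO (0.69, limma adjusted p = 0.00826; 0.051 without AZD0095 replicate 2). JUNB rose by 0.48 (limma adjusted p = 0.00598) and held its call without each RNA library in turn. KLF10 rose by 0.35 (limma adjusted p = 0.0197), a call that ended when DMSO replicate 2 (0.11), DMSO replicate 3 (0.069), AZD0095 replicate 2 (0.099) or AZD0095 replicate 3 (0.068) was left out. ID3, a dominant-negative helix-loop-helix factor, fell by 0.49 (limma adjusted p = 0.0115), lost without DMSO replicate 2 (0.061) or AZD0095 replicate 2 (0.064).

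Among the 15 listed ligands and factors that store or release them, 6 genes besides THBS1 and TGFB2 were measured and 0 were called. TGFB1, the gene of the TGF-beta 1 ligand, was at 0.17 (limma adjusted p = 0.175). Of the 10 measured receptors, SMAD genes and inhibitors, SMAD4, the common partner of the receptor-activated SMADs, fell by 0.35 (limma adjusted p = 0.0441). Leaving out any 1 of the other 5 RNA libraries than AZD0095 replicate 1 ended that call, the adjusted p then reaching 0.16. TGFBR1 (0.02), TGFBR2 (-0.04), SMAD2 (-0.17) and SMAD3 (0.01) were not called, and SMAD7, LRP1 and TFPI2 were not among the genes analysed.

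Of 9 genes of the tissue factor pathway and of pericellular proteolysis besides F3, 1 rose, 2 fell and 6 did not pass, where 8.04% of all genes were called. F2RL1, the protease-activated receptor through which tissue factor signals, fell to 160 ± 4.45 FPKM with AZD0095, against 212 ± 6.13 FPKM with DMSO (log2 difference -0.41, limma adjusted p = 0.00292), and held its call without each RNA library in turn. THBD, the thrombin-binding anticoagulant thrombomodulin, fell by 0.38 (limma adjusted p = 0.0251), lost without DMSO replicate 2 (0.12) or 3 (0.083) or AZD0095 replicate 2 (0.11). PLAT, the tissue plasminogen activator, rose by 0.35 (limma adjusted p = 0.0199), lost without DMSO replicate 2 (0.078) or AZD0095 replicate 2 (0.097) or 3 (0.073). PLAUR, the urokinase receptor, was at -0.01.

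Of the 27 listed matricellular, ADAMTS and TIMP genes 4 were measured besides the members. Of these the protease gene ADAMTS15 fell by 0.60 (limma adjusted p = 0.0257) and 3 did not pass. The call of ADAMTS15 was lost without DMSO replicate 2 (0.12) or 3 (0.085) or AZD0095 replicate 2 (0.086). Among 13 measured receptors for the members 2 were called, ITGA5 and F2RL1, given above, beside 8.04% of all genes, and CD47 was at 0.06. Of 16 factors and targets of SRF, an actin-responsive factor that also acts on CCN1 and CCN2, besides the members 0 were called in RNA (median 0.03), and SRF itself was at 0.20 (limma adjusted p = 0.189). In footprints 0 genes of these lists were called, as over all genes. Among the list genes called in RNA besides the members, FJX1, ADAMTS15 and F2RL1 had all treated footprint libraries below all control libraries. For F2RL1 the gap was narrow, 203.1 FPKM in AZD0095 replicate 2 against 204.1 FPKM in DMSO replicate 3. Footprints of ADAMTS15 were low, from 2.46 FPKM in AZD0095 replicate 1 to 16.8 FPKM in DMSO replicate 1. Over all genes 5.77% had their footprint groups apart in this direction. The footprint groups of the remaining called list genes overlapped.

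**Figure D5:**
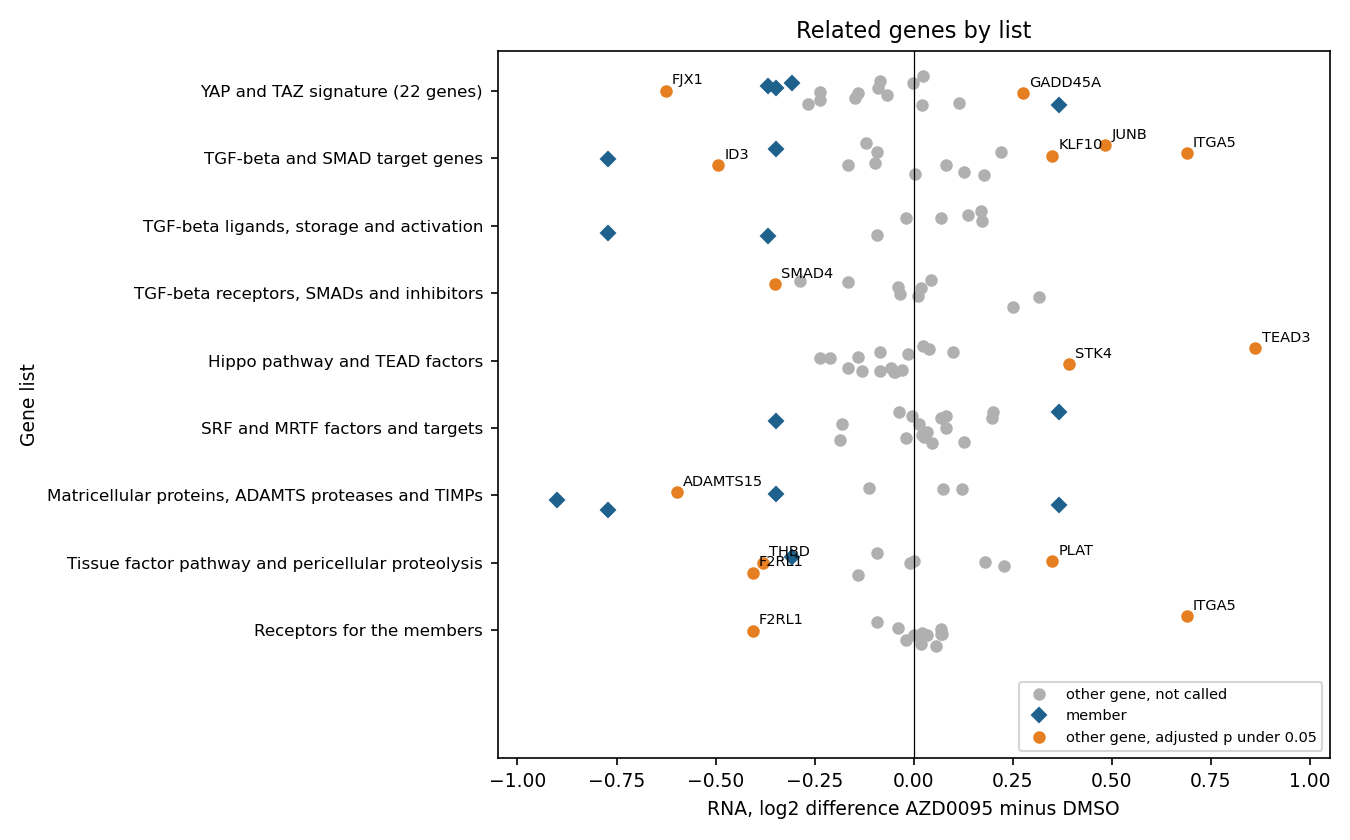
Log2 difference in RNA between AZD0095 and DMSO for the measured genes of each list (rows; vertical scatter within a row has no meaning), with the 6 members as diamonds and other genes called at an adjusted p under 0.05 in orange. Calls among the other genes fall on both sides of 0, from FJX1 at -0.63 to TEAD3 at 0.86.

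The nearest RNA patterns were sought over the 6 RNA libraries, which share the treatment difference, among 4389 genes with a standard deviation of at least 0.1. THBS1 was most like FAM43A, NOG and RASSF1 (Pearson r = 0.998, 0.997 and 0.997). CCN2 was most like ADAMTS15, FOXQ1 and FAM43A (0.997, 0.996 and 0.994), and CCN1 like GRINA, CTDSP2 and KIF3C (0.999, 0.998 and 0.997). Among the members themselves THBS1 and CCN2 had r = 0.987, while CCN1 and CCN2 had -0.80. The signs follow from the choice of the members by their RNA difference in these libraries.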

How the data were processed

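RNA-seq and ribosome profiling of MDA-MB-231 cells gave 12 libraries, 3 for each assay and treatment, grouped and numbered by their titles. Per the labels' protocols, footprints came from lysates of cycloheximide-treated cells digested with RNase I, with rRNA removed by antisense probes and RNase H. The authors deposited FPKM values for each library; the tools STAR, Bowtie2 and fastp and the build hg38 are named, per the submitters' processing notes. How each was used, what counted the reads, with or without strand, and how FPKM was formed is not stated there, so reads of an antisense or overlapping gene cannot be told apart. The RNA libraries are titled total RNA but carry polyadenylated RNA as their molecule.

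Each table listed the same 6785 genes at 1.002 FPKM or more; 8 repeated entries were removed, leaving 6777. Of the IDs, 6776 were found in a table of gene names. Values were taken as log2(FPKM + 1), a pseudocount that understates changes of low genes; a filter at a mean of 1 FPKM removed none. RNA, footprints and their interaction (translational efficiency, with 1 spread per gene over both assays) were fitted with limma 3.58.1 in R 4.3.3, two-sided, with a variance trend and Benjamini-Hochberg adjustment over all genes at 0.05. Ratios between members were tested by exact permutation (scipy 1.17.1). Footprint reads were recovered where a gene's FPKM in all 6 libraries were whole multiples of 1 read within 0.02 of a read, which held for 1311 genes (19.3%). Both procedures were tested on simulated data. The members, the lists and the promoter motifs were chosen with earlier results of these data known. Besides the members, the genes named are list genes past the threshold and a fixed set of pathway genes, of which 1 is not reported here; for THBS1, CCN1 and CCN2 the 3 genes of highest Pearson r are named. Alternatives were another pseudocount and filter, other scalings, no trend, a replicate block, replicate 1 as a batch, and leaving out libraries.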

Additional observations from a re-analysis of the deposited data

How the results depend on the processing

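The RNA differences of the 6 genes kept their direction and moved by less than 1 standard deviation under all 15 alternatives run: THBS1 ran from -0.85 to -0.69, ADAMTS1 from -0.92 to -0.89, CCN1 from 0.33 to 0.40, CCN2 from -0.40 to -0.30, TGFB2 from -0.40 to -0.32 and F3 from -0.32 to -0.29. The filters, the fit without a trend, the replicate block and the batch term cannot move a difference of means in this balanced design. They left the values unchanged and are no check on them. The direction chose the genes, so its stability is a description only. The background was less stable: 545 genes were called in RNA, 1622 with a replicate block, 1660 with replicate 1 as a batch, 1395 from replicates 2 and 3 only, and 100 (without DMSO replicate 2) to 1112 (without AZD0095 replicate 1) with a library left out. Same-numbered RNA libraries deviated together at 0.62, 0.09 and 0.49 (r across genes) and did not all correlate best with their own number, so the numbers were not taken to pair the samples. The list genes were likewise called without a block, so a list gene given as not called is so in that fit only. Footprint calls stayed at 0 under every alternative run, the replicate block included (0). Translational efficiency calls were 0 as reported and with the block, 1 with limma without a trend, and 0 to 4 with a library left out. The CCN2 footprint difference reversed to 0.013 without DMSO replicate 2 and to 0.0402 without AZD0095 replicate 2, in a range of -0.057 to 0.0402 with a library left out. The efficiency difference of TGFB2 reversed to -0.14 and -0.14, and that of ADAMTS1 to -0.17 and -0.064, without DMSO footprint replicate 2 and AZD0095 footprint replicate 3. The cause was not tested. The footprint log2 ratio of CCN1 to CCN2 differed by 0.43 to 0.65 and that of CCN1 to THBS1 by 0.70 to 0.90 with a library left out; paired by a replicate block they were 0.51 and 0.79 (exact sign-flip p = 0.25 for both, the smallest 3 pairs allow). Footprint values rest on 107087 to 501351 implied reads per library.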
